A study of Saccharomyces cerevisiae with 14 samples.

Results

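The mitochondrial ribosomal protein genes of the budding yeast Saccharomyces cerevisiae were taken by their standard names, as every gene called MRPL, MRPS or RSM followed by a number, together with IMG1 and IMG2. This gave 56 genes of the 6470 in the count table, 36 of the large subunit (MRPL and IMG) and 20 of the small subunit (MRPS and RSM). RNA had been depleted of ribosomal RNA and sequenced from a haploid MATa strain grown in synthetic complete medium at pH 4 and 30 °C, after a preculture of 24 h diluted to an optical density of 0.05. Metformin, an oral glucose-lowering drug of the biguanide class, was given at 50 mM or left out. The 14 libraries formed 4 groups: stationary phase with metformin (n = 3), stationary phase without metformin (n = 3), exponential phase with metformin (n = 4) and exponential phase without metformin (n = 4). All groups carried the same alleles. HIS3 was disrupted (his3D::kanMX4 and his3D1 in the labels), URA3 was deleted (ura3D0), LYP1 was deleted (lyp1D), CAN1 was replaced (can1D::STE2pr-SpHIS5), LEU2 was present, and PDC1 was tagged (PDC1-RFP-CaURA3MX4). The series title names retrotransposons, metformin and chronological aging. The labels do not say whether replicates were separate cultures, and p-values cover the scatter among these libraries only, which may be technical.

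The mitochondrial ribosome, or mitoribosome, translates the few proteins encoded in mitochondrial DNA, nearly all of them subunits of the respiratory chain and the ATP synthase. Its RNAs and the protein Var1 come from the mitochondrial genome, and all its other proteins are made in the cytosol and imported. Some of these proteins have counterparts in bacterial ribosomes and carry a family name that starts with u or b, such as uS17, and others are specific to mitochondria and carry a name that starts with m, such as mL40. The RNA-binding protein Puf3 is known to bind the 3' ends of many messenger RNAs of this group in yeast and to act on their decay, their translation and their localization to mitochondria.

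Gene counts summed to 43897221 to 59443572 per library, and all 56 genes passed the filter on low counts, with 116 to 4898 counts per gene and library. Genes specific to MATa cells were high, with 1105 to 27113 counts of the receptor gene STE2 and 992 to 10980 of the pheromone gene MFA1, against 218 to 736 of STE3 and 13 to 85 of MF(ALPHA)1, the counterparts of the other mating type. URA3 was at 0 counts in every library (a count of 0 allows up to 3), HIS3 had 0 to 18 and LYP1 had 0 to 50. CAN1, labelled as replaced, had 1334 to 1877 counts in exponential libraries, which goes against that label. In stationary libraries it had 67 to 106 counts, beside 26 to 50 of LYP1, so the conflict is less clear there. Members MRPL19 and MRPL51 overlap other features of the table: YNL184C shares 113 bases of the same strand with MRPL19, and YPR099C shares 323 bases of the opposite strand with MRPL51, so counts of these genes are uncertain. Protein-coding genes held 25.1% to 33.3% of gene counts in the 6 stationary libraries and 84.0% to 87.5% in the 8 exponential libraries, so phase results depend on the scaling. Other scalings are given beside TMM for the main counts of members and for many single genes. Phase results given with TMM alone rest on that scaling.

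Nearly all members shared a sequence after the stop codon that the choice of genes did not use. The core of the known Puf3 site, TGTANATA on the sense strand with N for any base, was searched in the 200 bases after the stop codon of the R64 reference. It was found in 55 of the 56 members (98.2%), against 844 of 5995 nuclear protein-coding genes (14.1%). All 36 large subunit genes had it and 19 of the 20 small subunit genes, the exception being RSM22, which encodes a protein related to methyltransferases. The motif was not particular to the members. Mitoribosomal protein genes with other names had it in 9 of 9 for the large and 14 of 14 for the small subunit. It was found in 13 of 13 mitochondrial aminoacyl-tRNA synthetases and in 11 of 13 genes of mitoribosome assembly and membrane anchoring. Mitochondrial translation factors had it in 9 of 12 and translational activators in 12 of 16. In cytosolic ribosomal protein genes the motif was found in 4 of 82 for the large and 2 of 56 for the small subunit. The members held 68 copies in all, with 43 genes holding 1 copy, 11 genes holding 2 and RSM19 holding 3. The first base of a copy lay 8 to 165 bases after the stop codon, with a median of 56. At the variable letter 29 copies had A, 22 had T, 16 had C and 1 had G, and 45 copies had C at the second base before the motif.

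The copies are shown for the 3 genes that were higher in stationary cultures under every scaling and in both metformin arms (MRPS17, RSM10 and MRPL28), for the 3 that were lower under every scaling and in both arms (MRPL32, MRPL7 and MRPL25), and for MRPS12, which with TMM passed the test in neither arm. Capitals mark the motif, and sequences run 5' to 3' on the strand of the gene. They come from the RefSeq copy of the R64 genome, read by locus tag; the build that the authors aligned to is not given in the sources used here. Positions on the plus strand are chrIV:540462-540491 for RSM10, chrIV:1386537-1386566 and chrIV:1386593-1386622 for MRPL28, chrIII:119206-119235 for MRPL32 and chrIV:937564-937593 for MRPL7. Positions on the minus strand are chrXIII:636217-636246 for MRPS17, chrVII:637008-637037 for MRPL25 and chrXIV:694269-694298 for MRPS12.
MRPS17: gcactacactcTGTAAATAtatacaactac
RSM10: gatttcgtactTGTAAATAaaataggtgaa
MRPL28, nearer copy: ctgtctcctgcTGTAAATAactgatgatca
MRPL28, farther copy: atataattataTGTACATAgacatataaag
MRPL32: aaacttaagccTGTATATAgaaacttaatt
MRPL7: cccattcgtcaTGTAAATAtataaactgta
MRPL25: atgtctaatcaTGTAAATAattttgtgata
MRPS12: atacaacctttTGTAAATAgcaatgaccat
The same core with A at the variable letter stands after genes that were higher, lower and not called between the phases.

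**Figure D1:**
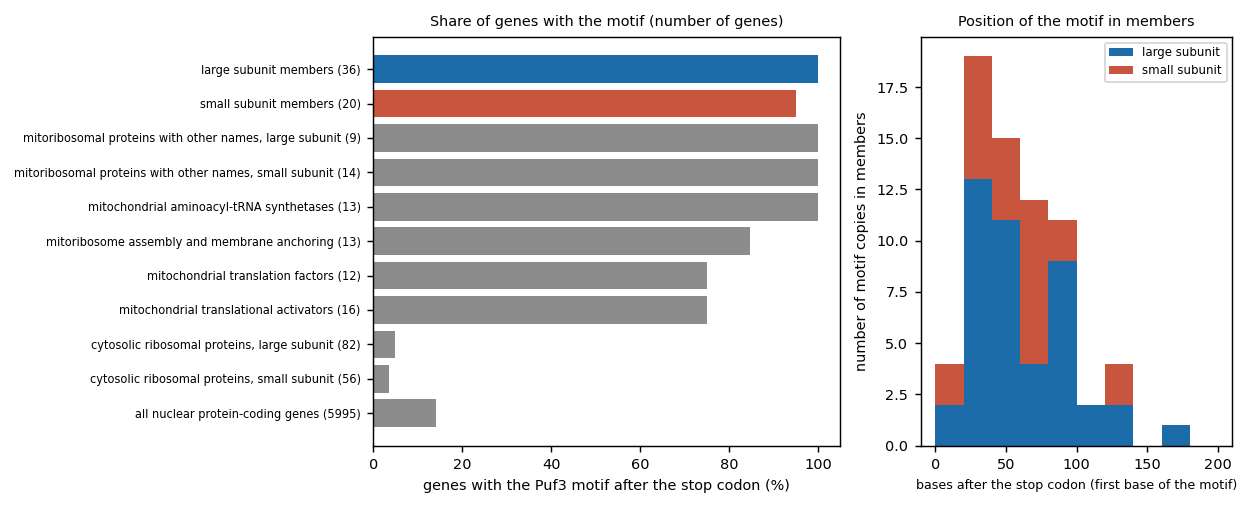
Left, share of genes (%) with the motif TGTANATA in the 200 bases after the stop codon, by gene set, with the number of genes in brackets; right, number of motif copies in the members by the distance of the first base from the stop codon, in bins of bases, stacked by subunit. The bars of both subunits stand at 100% and 95.0%, against 14.1% of all nuclear protein-coding genes. Mitoribosomal proteins with other names and mitochondrial aminoacyl-tRNA synthetases stand at 100% too.

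Levels per length are CPM after TMM scaling, divided by the kilobases of coding sequence. MRPL39, the bL33 protein and the shortest member with 213 coding bases, stood highest over all libraries. Its level was 194.5 ± 25.8 in stationary cultures with metformin (SD, n = 3), 189.3 ± 12.9 in stationary cultures without (n = 3), 119.3 ± 6.60 in exponential cultures with metformin (n = 4) and 132.5 ± 9.35 in exponential cultures without (n = 4). MRPS12, the uS12 protein of the decoding centre, and RSM19, the uS19 protein, were the highest of the small subunit over all libraries and in exponential cultures, with 134.5 ± 7.19 and 157.7 ± 7.29 per kilobase in stationary cultures without metformin (n = 3) and 129.7 ± 4.92 and 108.2 ± 5.25 in exponential cultures without (n = 4). In stationary cultures without metformin RSM10 and RSM18 stood above both, at 181.0 ± 19.7 and 168.3 ± 17.7 per kilobase. MRPL31, the mL60 protein, was the next highest of the large subunit over all libraries, at 140.4 ± 2.84 per kilobase in stationary cultures without metformin and 73.1 ± 4.62 in exponential cultures without, where MRPL33 stood above it at 95.3 ± 4.80. The lowest over all libraries were MRPL11 (uL10) and MRPL4 (uL29) of the large subunit and RSM22 and RSM23 (mS29) of the small subunit. RSM22, with 1887 coding bases the longest member, had 23.5 ± 1.64 per kilobase in stationary cultures without metformin (n = 3) and 11.2 ± 2.00 in exponential cultures without (n = 4). The highest member exceeded the lowest by 21.8-fold in stationary cultures with metformin and 22.4-fold without, against 10.9-fold in exponential cultures with metformin and 11.8-fold without. The SD over members of the log2 level per kilobase averaged 1.01 in stationary libraries with metformin and 1.02 without, against 0.698 in exponential libraries with metformin and 0.720 without. The levels of the members were therefore spread more widely in stationary cultures, in which MRPL32 took the lowest place at 8.92 per kilobase with metformin and 8.46 without.

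Between the phases without metformin the members moved in both directions. With TMM scaling and edgeR's quasi-likelihood test with Benjamini-Hochberg adjustment over all 6097 genes tested, 37 of the 56 members were higher in stationary cultures (background 42.4% of all genes), 12 were lower (background 42.2%) and 7 did not pass. With plain library totals the same test called 5 higher and 36 lower, and with totals of protein-coding genes alone 43 higher and 3 lower. The median gene of the table moved to -1.02 with plain totals and to 0.43 with protein-coding totals, against 0.02 with TMM. Relative to that median, the median member stood at 0.35 with TMM, 0.35 with plain totals and 0.37 with protein-coding totals. The absolute direction of most members rests on the scaling. Their place relative to the median gene was nearly the same under all 3. A change of scaling shifts all genes of a library alike, so this agreement is no separate check. In bulk RNA, a smaller share of cells expressing a gene and less of its RNA per cell cannot be told apart. The median log2 fold change of the members was 0.36 with quartiles of -0.16 and 0.98, against 0.02 with quartiles of -1.02 and 1.05 over all genes tested. Past a 2-fold change stood 13 members upward (23.2%, against 25.9% of all genes) and 2 downward (3.57%, against 25.4%).

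**Figure D2:**
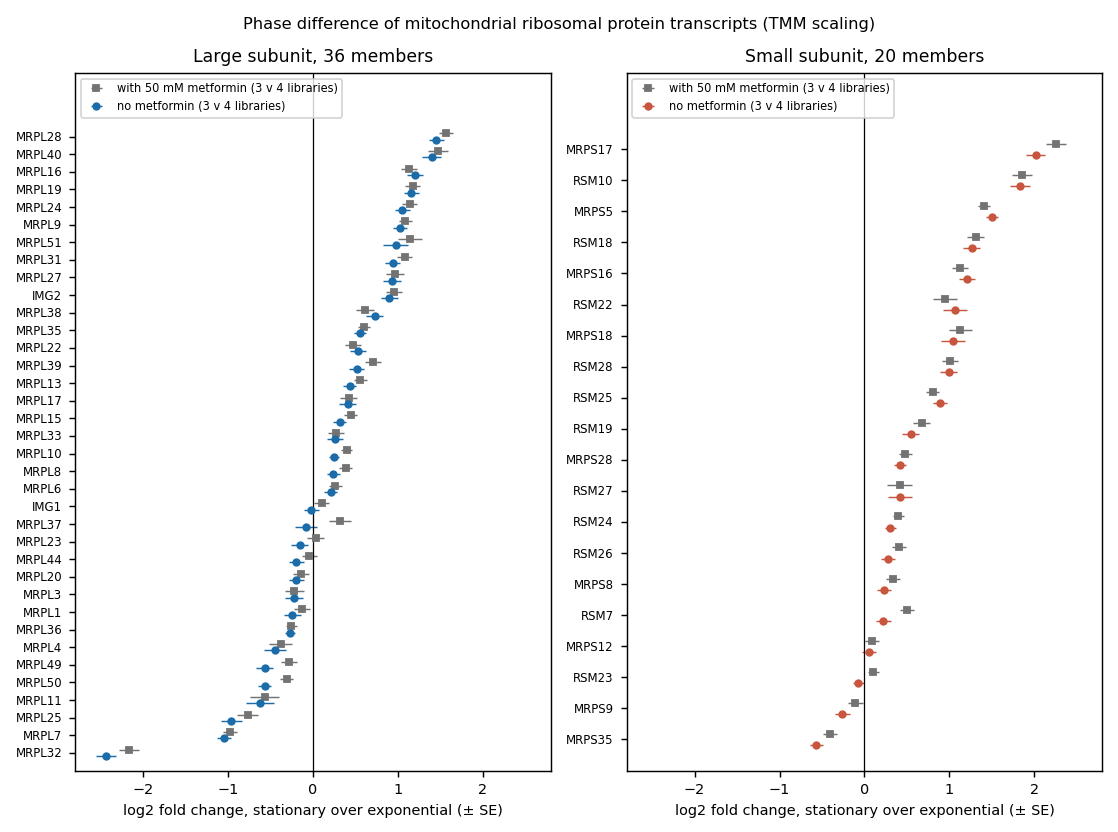
Log2 fold change with its standard error, stationary over exponential cultures, for each large subunit gene (left) and small subunit gene (right), sorted by the value without metformin; squares are cultures with 50 mM metformin and circles cultures without. The changes run between MRPL32 at -2.16 with and -2.44 without metformin and MRPS17 at 2.25 and 2.01; with plain library totals most members turn negative.

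In the small subunit 16 of 20 members rose in stationary cultures without metformin with TMM scaling (background 42.4% of all genes) and 2 fell (background 42.2%). Plain totals gave 3 higher and 11 lower, with the median gene of the table at -1.02. The median log2 fold change of the small subunit members with TMM was 0.48. The 3 small subunit members called higher with plain totals were MRPS17, RSM10 and MRPS5. MRPS17, the uS17 protein that binds small subunit ribosomal RNA in bacteria, had 92.8, 91.1 and 88.3 CPM in stationary libraries without metformin, against 23.4, 21.9, 23.7 and 20.8 CPM in exponential libraries without. Every stationary library lay far above every exponential library, and the level was 4.04-fold higher (log2 2.01, SE 0.12, adjusted p = 5.48e-10 by edgeR). RSM10, the uS10 protein, had 110.4, 98.8 and 123.0 CPM in stationary libraries without metformin, against 29.9, 31.5, 30.2 and 33.0 CPM in exponential libraries without. The groups did not overlap, and RSM10 was 3.56-fold higher (log2 1.83, SE 0.12, adjusted p = 1.51e-09 by edgeR). MRPS5, the uS5 protein, had 70.8, 68.5 and 78.8 CPM in stationary libraries without metformin, against 25.8, 24.7, 25.8 and 26.3 CPM in exponential libraries without. It was 2.84-fold higher, with the exponential libraries within 2 CPM of each other (log2 1.504, SE 0.07, adjusted p = 7.5e-11 by edgeR). RSM18 (bS18) was higher by 1.26 (SE 0.10) and MRPS16 (bS16) by 1.21 (SE 0.10) on the log2 scale with TMM, and both missed the threshold with plain totals.

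In the large subunit 21 of 36 members rose in stationary cultures without metformin with TMM scaling (background 42.4% of all genes) and 10 fell (background 42.2%). Plain totals gave 2 higher and 25 lower, with the median gene of the table at -1.02. The median of the large subunit members with TMM was 0.25. MRPL28, the mitochondria-specific protein mL40, had 56.5, 52.3 and 45.1 CPM in stationary libraries without metformin, against 18.6, 17.7, 20.4 and 18.1 CPM in exponential libraries without. The groups did not overlap, and MRPL28 was 2.74-fold higher (log2 1.46, SE 0.09, adjusted p = 6.82e-10 by edgeR). MRPL40, the uL24 protein, had 46.3, 38.0 and 48.3 CPM in stationary libraries without metformin, against 16.6, 18.5, 17.7 and 14.1 CPM in exponential libraries without. It was 2.64-fold higher, again with no overlap (log2 1.40, SE 0.11, adjusted p = 2.5e-08 by edgeR). MRPL28 and MRPL40 were also the large subunit members called higher with plain totals. MRPL16 (uL16, next to the peptidyl transferase centre in bacteria) was higher by 1.21 (SE 0.10), MRPL19 (uL11) by 1.16 (SE 0.09) and MRPL24 (bL28) by 1.05 (SE 0.09) on the log2 scale with TMM, and these 3 missed the threshold with plain totals. The other 16 large subunit genes that rose with TMM lay between 0.21 for MRPL6 and 1.03 for MRPL9.

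Of the 12 genes that fell with TMM 10 were of the large subunit, which holds 36 of the 56 members. MRPL32, the bL32 protein, whose maturation by the m-AAA protease of the inner membrane is a known step of mitoribosome assembly in yeast, had 4.16, 4.36 and 5.48 CPM in stationary libraries without metformin, against 24.9, 24.2, 24.3 and 27.4 CPM in exponential libraries without. Every stationary library lay below every exponential library, at 0.185 times the exponential level (log2 -2.44, SE 0.12, adjusted p = 1.09e-10 by edgeR). MRPL7, the uL5 protein, had 14.4, 12.1 and 12.9 CPM in stationary libraries without metformin, against 26.2, 26.7, 28.6 and 27.2 CPM in exponential libraries without. MRPL25, the mitochondria-specific protein mL59, had 8.18, 8.40 and 8.13 CPM in stationary libraries without metformin, against 15.8, 16.5, 15.2 and 16.7 CPM in exponential libraries without. Neither gene overlapped between the phases, with log2 fold changes of -1.05 (SE 0.09, adjusted p = 3.01e-08 by edgeR) for MRPL7 and -0.96 (SE 0.12, adjusted p = 4.34e-06 by edgeR) for MRPL25. MRPL32, MRPL7 and MRPL25 were lower under TMM, plain totals and protein-coding totals. MRPL11 (uL10) stood at -0.62 (SE 0.17) and MRPL50 (bL9) at -0.57 (SE 0.08) with TMM, and both missed the threshold with protein-coding totals. The remaining large subunit genes that fell with TMM were MRPL49, MRPL4, MRPL36, MRPL1 and MRPL44, between -0.56 and -0.19; with protein-coding totals none of the 5 was called lower and MRPL44 was called higher. In the small subunit MRPS35 (mS45) fell by 0.56 (SE 0.08) and MRPS9 (uS9) by 0.26 on the log2 scale with TMM, and with protein-coding totals neither was called lower.

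IMG1, MRPL3, MRPL20, MRPL23 and MRPL37 of the large subunit and MRPS12 and RSM23 of the small subunit did not pass the test between the phases without metformin with TMM. MRPS12 had 61.5, 59.2 and 65.7 CPM in stationary libraries without metformin, against 59.0, 62.5, 57.3 and 61.0 CPM in exponential libraries without. These groups overlapped, at a log2 ratio of 0.05 (SE 0.08, adjusted p = 0.55 by edgeR).  The exact two-sided permutation test on CPM gave p = 0.0571, the smallest that 3 against 4 libraries allow, for each member above that passed between the phases without metformin, except MRPL44 and MRPS9, whose libraries overlapped (p = 0.114 by the same exact test).

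**Figure D3:**
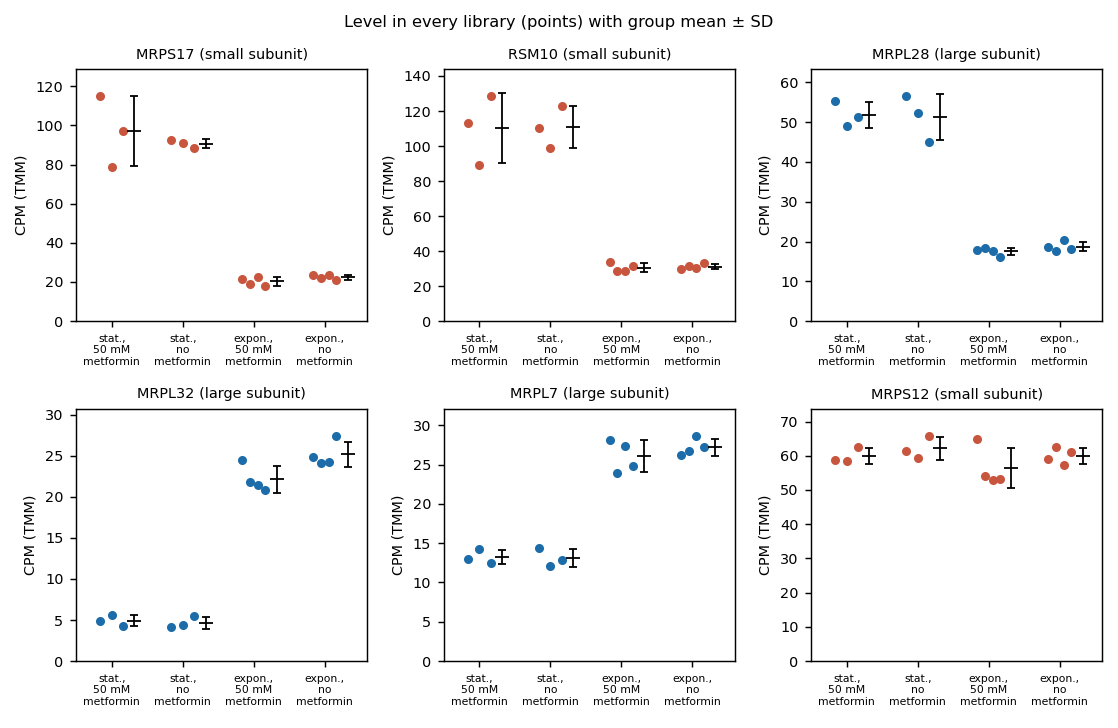
CPM with TMM scaling in every library (points) with the group mean and SD (dash and bar), for 3 members that were higher in stationary cultures, 2 that were lower and MRPS12, with stationary groups left of exponential groups and metformin left of no metformin. MRPS17 stands at 79.0 to 114.9 CPM in stationary and 17.9 to 23.7 CPM in exponential libraries, and MRPL32 at 4.16 to 5.66 and 20.8 to 27.4 CPM.

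The phase comparison was repeated by the cultures with metformin, which share no library with those without. With TMM 38 members were higher in stationary cultures with metformin (background 40.8%), 9 were lower (background 41.8%) and 9 did not pass, with a median of 0.44 against -0.01 over all genes. Plain totals gave 3 higher and 38 lower, and protein-coding totals 44 higher and 3 lower. With TMM 37 genes were higher in both arms, 9 were lower in both and 0 were called in opposite directions. Over all 6097 genes tested 2384 were higher in both, 2457 lower in both and 1 opposite, so the lack of opposite calls was general. MRPS17 had 114.9, 79.0 and 97.2 CPM in stationary libraries with metformin, against 21.7, 19.2, 22.7 and 17.9 CPM in exponential libraries with metformin. It was 4.76-fold higher (log2 2.25, SE 0.12, adjusted p = 1.78e-10 by edgeR), and the stationary libraries were more scattered than those without metformin. MRPL32 had 4.85, 5.66 and 4.26 CPM in stationary libraries with metformin, against 24.5, 21.8, 21.5 and 20.8 CPM in exponential libraries with metformin, with no overlap (log2 -2.16, SE 0.12, adjusted p = 4.03e-10 by edgeR). RSM10 (1.85), MRPL28 (1.57), MRPL40 (1.47), MRPS5 (1.40) and RSM18 (1.31) again had the highest log2 fold changes after MRPS17. MRPL51 (mL43) stood at 1.15 and MRPS18 (uS11, on the platform of the small subunit in bacteria) at 1.13 with TMM, and with plain totals both turned negative. MRPL37, the mL54 protein, was called higher with metformin (0.32, SE 0.13, adjusted p = 0.0338 by edgeR) and stood at -0.08 without, although its libraries overlapped between the phases in both arms. MRPL4 was lower with metformin (-0.38, adjusted p = 0.0156 by edgeR), a call that was lost without the third stationary library with metformin (-0.19, adjusted p = 0.0511 by edgeR). Across the 56 genes the log2 fold changes of both arms had a Pearson correlation of 0.992, and 0.964 over all genes tested, as a description of genes that share libraries within each arm.

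The balance of large and small subunit members differed between the phases. Over members with a bacterial counterpart the large subunit stood relatively lower in stationary phase. Over those specific to mitochondria the difference was smaller and of the opposite sign. This split was made after the data were seen, and what lies behind it was not tested. The mean of log2(CPM + 0.5) over large subunit genes minus that over small subunit genes does not depend on the scaling of a library, apart from the pseudocount. It was -0.585, -0.535 and -0.655 in the stationary libraries with metformin. In stationary libraries without metformin it was -0.612, -0.627 and -0.606. The exponential libraries gave -0.169, -0.164, -0.185 and -0.163 with metformin and -0.188, -0.140, -0.166 and -0.157 without. All 6 stationary libraries lay below all 8 exponential libraries, so over these 56 genes the large subunit transcripts stood lower relative to those of the small subunit in stationary phase. The difference between the phases was -0.42 with metformin and -0.45 without. Without MRPL32 and MRPS17, the members with the lowest and the highest change, it was -0.28 with metformin and -0.31 without, an alternative chosen after the data were seen. The next 3 gene choices were also made after the data were seen. Over the 22 large and 12 small subunit members with a bacterial counterpart the phase difference was -0.72 with and -0.72 without metformin. MRPL32 and MRPS17 both belong to this class. Over the 14 large and 7 small subunit members specific to mitochondria it had the opposite sign, 0.10 with and 0.06 without metformin. The libraries without metformin overlapped between the phases (-0.150 to -0.032 in stationary and -0.180 to -0.119 in exponential cultures). Those with metformin did not overlap (-0.083 to -0.040 in stationary and -0.180 to -0.127 in exponential cultures). With mitoribosomal proteins of other names included, 45 large and 35 small subunit genes, it was -0.20 with and -0.24 without metformin. Between cultures with and without metformin this measure differed by 0.02 in stationary and -0.01 in exponential phase, within the spread of the libraries.

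Summed over members, the large subunit had 1131 ± 51.9 CPM in stationary cultures with metformin and 1131 ± 48.7 CPM without (SD, n = 3 each), against 829.0 ± 53.9 CPM in exponential cultures with metformin and 881.9 ± 19.9 CPM without (n = 4 each). The small subunit had 941.3 ± 58.6 CPM and 947.6 ± 39.3 CPM in stationary cultures with and without metformin, against 537.4 ± 34.1 CPM and 565.6 ± 10.1 CPM in exponential cultures with and without. As a share of protein-coding counts all members together held 0.433% ± 0.0300 and 0.458% ± 0.0216 in stationary cultures with and without metformin, against 0.225% ± 0.0188 and 0.236% ± 0.00685 in exponential cultures. As a share of all gene counts the order turned round, with 0.126% ± 0.0223 and 0.141% ± 0.0195 in stationary cultures with and without metformin, against 0.193% ± 0.0164 and 0.202% ± 0.00870 in exponential cultures.

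**Figure D4:**
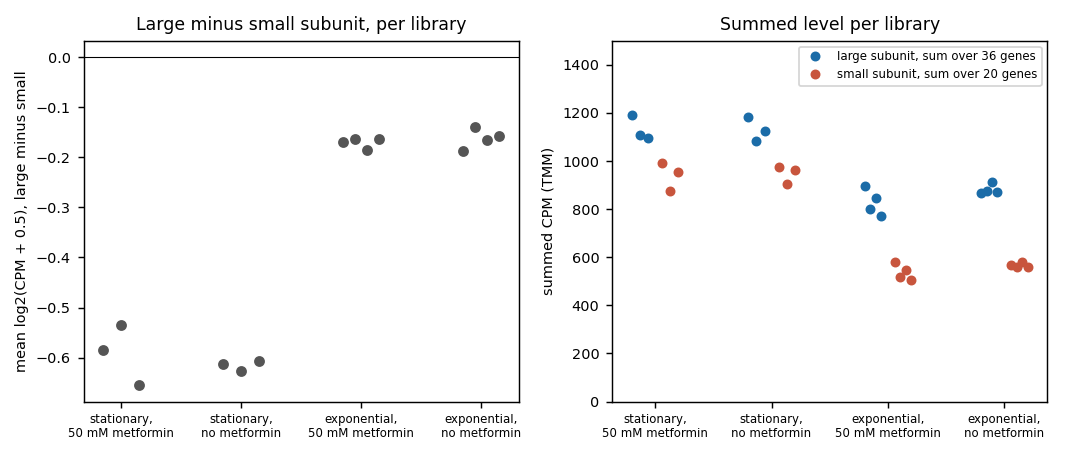
Left, mean log2(CPM + 0.5) of large subunit genes minus that of small subunit genes in each library; right, CPM summed over the 36 large and the 20 small subunit genes in each library, TMM scaling. Points are libraries, and stationary groups stand left of exponential groups; the left values lie between -0.655 and -0.535 in stationary and between -0.188 and -0.140 in exponential libraries.

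The groups of members by ancestry overlapped in their changes. Without metformin and with TMM, 12 small subunit members with a bacterial counterpart had a median log2 fold change of 0.79, with 10 higher and 1 lower. The 22 such members of the large subunit had a median of 0.23, with 12 higher and 8 lower. Over all genes tested 42.4% were higher and 42.2% lower. The 7 mitochondria-specific members of the small subunit had a median of 0.30 and the 14 of the large subunit 0.42. RSM22 was placed in neither class. Coding length and phase change had a Pearson correlation of 0.001 across the 56 genes, as a description.

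Metformin in exponential cultures gave 0 members called by edgeR (background 0.0984% of all genes), and 0 by DESeq2 and by limma-voom. At an unadjusted p under 0.05 there was 1 member, MRPL50, against a background of 1.77%. The log2 fold change was negative for 55 of the 56 members with TMM, against a background of 47.2% of all genes, and for 52 with plain totals, but each was small, between -0.23 and 0.04 with a median of -0.08. The exception was MRPL11 at 0.04 with TMM. Small negative values were also the rule in other ribosomal protein genes, with 9 of 9 large and 13 of 15 small subunit mitoribosomal proteins of other names and 72 of 82 large and 48 of 56 small subunit cytosolic proteins below 0. MRPL50, the bL9 protein, had 28.6, 26.1, 25.9 and 27.5 CPM in exponential libraries with metformin, against 30.7, 29.9, 28.9 and 31.0 CPM in those without. The groups did not overlap, at a log2 ratio of -0.16 (SE 0.07, unadjusted p = 0.0414, adjusted p = 0.999 by edgeR; exact permutation p = 0.0286 over unpaired libraries, while the 4 same-numbered pairs allow no exact p under 0.125). MRPL39, the bL33 protein, had 27.1, 25.6, 23.7 and 25.2 CPM in exponential libraries with metformin, against 27.2, 27.2, 27.4 and 31.2 CPM in those without. It was the other member with no overlap downward (background 0.476%), at -0.15 (SE 0.09, adjusted p = 0.999 by edgeR). MRPL32 stood at -0.19 (SE 0.10), MRPS8 (uS8) at -0.16 (SE 0.08), RSM26 (mS42) at -0.14 (SE 0.08) and MRPS16 at -0.14 (SE 0.09), all with an adjusted p of 0.999 by edgeR and with libraries of both groups overlapping.

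In stationary cultures metformin also gave 0 members called by edgeR (background 0.0492%), and 0 by DESeq2 and by limma-voom. With TMM 29 of the 56 log2 fold changes were positive (background 53.8%), between -0.22 and 0.25 with a median of 0.005, and with plain totals 2 were positive, with the median gene at -0.13. At an unadjusted p under 0.05 there were 2 members (background 8.04%), RSM7 and MRPS5. RSM7, the uS7 protein, had 42.1, 43.8 and 49.7 CPM in stationary libraries with metformin, against 38.1, 35.1 and 40.4 CPM in those without. The groups did not overlap, at 0.25 (SE 0.09, adjusted p = 0.417 by edgeR), and the exact permutation p = 0.100 is the smallest that 3 against 3 unpaired libraries allow. MRPS5 had 68.8, 61.7 and 63.9 CPM in stationary libraries with metformin, against 70.8, 68.5 and 78.8 CPM in those without, and the groups overlapped (-0.17, SE 0.08, adjusted p = 0.613 by edgeR). MRPS16 stood at -0.22 (SE 0.10) with no overlap, MRPL37 at 0.24 (SE 0.14), MRPL33 (uL30) at -0.14 (SE 0.10) and MRPL49 (bL21) at 0.14 (SE 0.11), with adjusted p of 0.620, 0.743, 0.870 and 0.874 by edgeR. Downward without overlap stood MRPS16, MRPL38 and RSM25 (3 of 56, background 2.95%), and upward RSM7 (1 of 56, background 8.2%). MRPL49 was at -0.001 with plain totals.

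A test of whether metformin acted differently in stationary and exponential cultures called 0 members by edgeR (background 0.0164%), by DESeq2 and by limma-voom. The difference was positive for 48 of 56 members with TMM (background 51.4%), with a median of 0.08, over genes that share the same libraries. It was positive for 11 with plain totals, where the median gene stood at -0.16 and the median member at -0.09. An unadjusted p under 0.05 was found for 3 members (background 5.54%), MRPL50 at 0.26 (SE 0.11, adjusted p = 0.782 by edgeR), RSM7 at 0.28 (SE 0.12, adjusted p = 0.833 by edgeR) and MRPL37 at 0.40 (SE 0.18, adjusted p = 0.874 by edgeR). MRPL49, RSM23 and MRPS17, the next of their subunits under the naming rule, had adjusted p of 0.964 or above by edgeR.

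**Figure D5:**
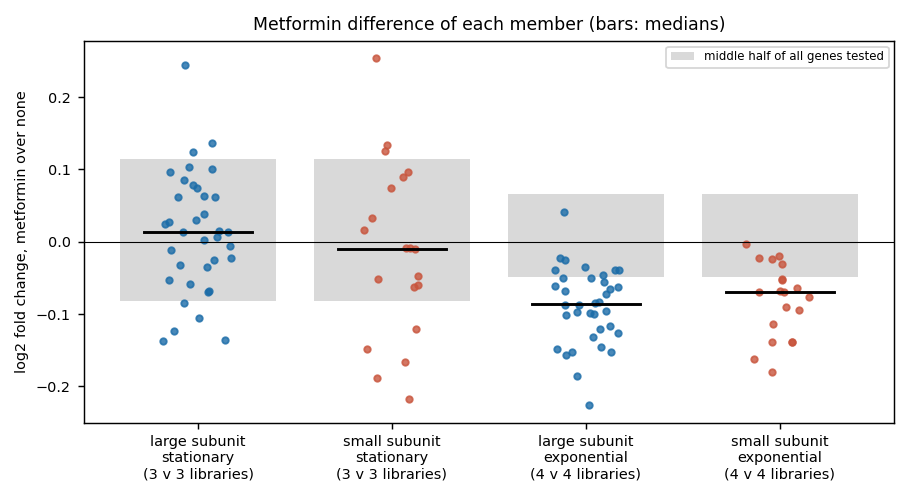
Log2 fold change, 50 mM metformin over none, of each large (blue) and small (red) subunit gene in stationary cultures (left) and exponential cultures (right), TMM scaling; black bars are medians and grey boxes the middle quartiles of all genes tested. The points lie between -0.22 and 0.25 in stationary and between -0.23 and 0.04 in exponential cultures, and 0 of them passed the test.

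Genes with more copies of the Puf3 motif did not stand far from those with 1 copy. Without metformin and with TMM the median phase change was 0.42 for the 12 members with 2 or 3 copies and 0.32 for the 43 with 1 copy, within quartiles of -0.22 to 1.17 and -0.12 to 0.92. Of 782 other tested genes with the motif 328 were higher and 324 lower, with a median of -0.01, and the median of 5001 nuclear protein-coding genes without it was -0.04. The promoter window, from 250 bases before to 50 bases after the start of the gene, was searched on both strands for AATTTT, a motif of mitoribosomal genes in other yeasts, and CCAAT, the core bound by the Hap complex. AATTTT was found in 20 of 56 members (35.7%, against 51.7% of nuclear protein-coding genes) and CCAAT in 22 (39.3%, against 43.3%). The median phase change without metformin was 0.74 for members with AATTTT and 0.29 for those without, and 0.54 for members with CCAAT and 0.30 for those without. These medians describe overlapping groups and were not tested.

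PUF3 itself was higher in stationary cultures with TMM, at 195.1 ± 3.97 CPM with and 186.7 ± 16.4 CPM without metformin (SD, n = 3 each), against 82.7 ± 4.75 CPM in exponential cultures with and 77.3 ± 1.18 CPM without (n = 4 each). Without metformin it stood at 1.27 (SE 0.07, adjusted p = 6.29e-10 by edgeR) on the log2 scale with TMM and 0.23 with plain totals. HAP4, the activating subunit of the Hap complex, was higher by 1.25 (SE 0.26, adjusted p = 0.000384 by edgeR) with TMM, with 480.8 ± 11.9 CPM in stationary cultures without metformin and 202.9 ± 63.6 CPM in exponential cultures without. With plain totals HAP4 stood at 0.21. Of the 8 regulators listed, 7 were higher and 0 lower without metformin with TMM, and HAP3 did not pass. Over all genes tested 42.4% were higher and 42.2% lower. With plain totals FHL1 stood at 0.509, IFH1 at 0.235 and HAP2 at 0.225, while SFP1, HAP5 and HAP3 were negative (-0.23, -0.17 and -1.27).

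Other genes of mitochondrial translation moved in both directions without metformin and with TMM. Among all genes tested 42.4% were higher and 42.2% lower in this comparison, beside which the counts of the following lists stand as a description, with nothing read from a share near it. Of 9 large subunit proteins with other names 7 were higher and 1 lower, with a median of 0.71, led by RTC6 (bL36) at 1.47 (SE 0.08) and MRP20 (uL23) at 1.38 (SE 0.10). With plain totals RTC6 stood at 0.43 and MRP20 at 0.35. Of 15 small subunit proteins with other names 8 were higher and 4 lower, with a median of 0.30. Among them VAR1, encoded in mitochondrial DNA, stood at 65.8 ± 30.5 CPM in stationary cultures (n = 3) and 7.41 ± 1.06 CPM in exponential cultures (n = 4), a log2 fold change of 3.15 (SE 0.25) that kept its sign with plain totals (2.09), and SWS2 (uS13) at 0.51 (SE 0.07), or -0.53 with plain totals. Of 12 translation factors 6 were higher and 4 lower, with GTF1, a subunit of the amidotransferase that makes glutaminyl-tRNA, at 3.53 (SE 0.14) and IFM1, the initiation factor, at 1.44 (SE 0.11). Plain totals gave 2.49 for GTF1 and 0.39 for IFM1. Of 13 assembly and membrane anchoring genes 7 were higher and 2 lower, and YTA12, a subunit of the m-AAA protease that matures Mrpl32, stood at -0.75 (SE 0.08) and MDM38, which links ribosomes to the inner membrane, at 0.58 (SE 0.08), or -0.47 with plain totals. Of 13 mitochondrial aminoacyl-tRNA synthetases 5 were higher and 6 lower, with MSF1 at -3.02 (SE 0.21) and MSW1 at -1.79 (SE 0.13). Of 16 translational activators 10 were higher and 5 lower, with SOV1 at 1.80 (SE 0.10) and AEP1 at 1.15 (SE 0.07), or 0.76 and 0.11 with plain totals. By contrast the cytosolic ribosomal protein genes fell almost without exception, 81 of 82 of the large subunit with a median of -2.94 and 55 of 56 of the small subunit with a median of -2.99. RPL9A and RPS22A each stood at -4.82, RPS18B at -3.97 and RPL7A at -3.72. The genes named here with a negative value under TMM stood lower still with plain totals. The counts of these lists are given with TMM only.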

How the data were processed

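The authors deposited raw counts per gene for 14 libraries. The submitters' processing notes name STAR, SAMtools and HTSeq. Their versions, the build, the annotation and the strand setting are not stated in those notes. All 6470 identifiers matched R64 locus tags, which gave names and coding lengths. The 5 HTSeq summary rows, 6.12% to 10.1% of reads, stayed out of library sizes and tests. Reads of the same gene are not independent molecules, so count intervals cover counting error only.

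Genes were kept by filterByExpr (minimum count 10, minimum total 15), scaled with TMM and fitted over all libraries with edgeR 4.0.16 (R 4.3.3) by the quasi-likelihood test, two-sided, with Benjamini-Hochberg adjustment over 6097 genes and a threshold of 0.05. Scripts were tested on simulated data. Alternatives were DESeq2 1.42.0, limma-voom 3.58.1, RLE scaling, plain totals, totals of protein-coding genes (added after the data were seen), no filter, only the groups compared, the replicate block, other gene choices for the subunit difference (added after the data were seen), and each library left out. No replicates of a group agreed within sampling noise (chi-square per degree of freedom 35.2 to 282.8).

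The replicate numbers of the titles were checked as pairs. Deviations of same-numbered libraries correlated at 0.103 to 0.624 for metformin in exponential cultures and 0.136 to 0.467 in stationary cultures. Between phases they correlated at 0.151 to 0.261 with metformin and -0.059 to -0.033 without. Libraries of different numbers gave -0.65 to 0.525, -0.474 to 0.35, -0.223 to 0.066 and -0.091 to 0.091 in the same order. In both metformin comparisons some of them thus lay above same-numbered libraries. The numbers were treated as possible pairs in the first 3. The main tests still took all libraries as unpaired, and the replicate block was run as an alternative only. The table numbers the third stationary libraries 5, and the titles 3.

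Members and lists were chosen with earlier results of these data known. Named were, per phase comparison, up to 5 members of each subunit at each end among those that passed without overlap; per metformin comparison and the interaction, the 3 of each subunit with the lowest p; the 2 highest and 2 lowest levels per kilobase of each subunit; and the 2 genes of each other list with the lowest p. Other members named complete a count.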

Additional observations from a re-analysis of the deposited data

Results flagged for a closer look

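Of 66 sets of 4 exponential libraries checked for a library far from the others (Dixon's 95% criterion), 4 met it, where chance meets it in about 1 of 20. MRPL11 had 8.39 CPM in the fourth exponential library without metformin, against 11.2 to 11.5 CPM in the other 3. MRPL39 had 31.2 CPM in the same library, against 27.2 to 27.4 CPM in the others. MRPS12 had 65.0 CPM in the first exponential library with metformin, against 53.0 to 54.2 CPM. The sum over all members was 1491 CPM in the third exponential library without metformin, against 1430 to 1435 CPM. Stationary groups of 3 libraries were not checked in this way.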

How the results depend on the processing

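The counts of 0 members for metformin in both phases and for the interaction held under every alternative run. Phase counts depended on the scaling. Plain totals gave 3 higher and 38 lower with metformin and 5 and 36 without; protein-coding totals gave 3 lower in each arm. DESeq2, limma-voom, RLE, no filter, only the groups compared and the replicate block (38 higher and 9 lower with metformin, 36 and 13 without) stayed within 1.5 times the main counts, and the replicate block changed no call of a named member. Leaving out each library gave 35 to 39 higher and 7 to 11 lower with metformin and 33 to 37 and 10 to 12 without. The phase difference of large minus small subunit was -0.450 to -0.389 with and -0.461 to -0.445 without metformin when a library was left out. With the median over members it was -0.329 with and -0.419 without metformin, without MRPL32 and MRPS17 -0.275 and -0.310, over members with a bacterial counterpart -0.717 and -0.724, over members specific to mitochondria 0.101 and 0.057, the opposite direction, with proteins of other names included -0.198 and -0.243, and with a pseudocount of 2 it was -0.425 without metformin. The metformin difference of this measure was -0.005 to 0.056 in stationary and -0.016 to 0.000 in exponential cultures with a library left out, and -0.043 with the median in exponential cultures. Of the log2 fold changes of named members, 766 values kept direction and side of the threshold, 14 lost the call and 6 changed sign. Those that changed sign with plain totals were MRPL19 at -0.036, MRPL51 at -0.072, MRPL24 at -0.073 and MRPS18 at -0.089 between phases with metformin and MRPL49 at -0.001 for metformin in stationary cultures; MRPL50 stood at 0.039 between phases with metformin with protein-coding totals. The scaling alone differs in these settings. Members had at least 116 counts in every library; the part of depth in the precision was not tested.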
